A study of Mus musculus with 2 samples.

Results

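Of 3531 Runx1 peaks called in double-positive thymocytes, 727 (20.6%) lay between protein-coding genes but near such a gene. A peak was placed in this near-intergenic class when its centre fell outside every protein-coding gene body and was more than 5 kb, but at most 50 kb, from the nearest protein-coding transcription start site (TSS) of the mouse genome build NCBIM37 (mm9). The rule used position only, and neither score nor sequence. The other Runx1 peaks comprised 999 within 5 kb of a TSS, 1015 in gene bodies farther from a TSS, and 790 in intergenic sequence more than 50 kb from a TSS, here called far-intergenic.

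The cells were CD4+ CD8+ double-positive (DP) thymocytes, the stage at which developing T cells carry both co-receptors, taken by magnetic sorting from the thymus of C57BL/6 mice (background C57Bl/6 J in the study's methods) between 4 and 6 weeks old. The number of animals pooled is not given in the sources used here, and no allele or treatment is named for either library. Chromatin immunoprecipitation (ChIP) with 10 μg of an anti-Runx1 antibody gave 1 library, and chromatin of the same cell type without antibody gave 1 input library, both made with 15 cycles of PCR for the SOLiD platform. The sample labels and the study's methods name different catalogue numbers for the antibody. Each library was deposited as a list of called peaks with a score for each, whose unit is not named, and without read counts, so that depth is unknown and no spread between replicates exists. The p-values below therefore compare peaks or positions within a single Runx1 library, not conditions. No expression was measured, so the cell type could not be checked against its markers.

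Runx1 is a transcription factor of the RUNX family that binds DNA through its Runt domain, as a dimer with the non-DNA-binding partner Cbfb, at the core sequence TGTGGT. In thymocytes it is known for repression of Cd4 before the DP stage and for its part at the T-cell receptor enhancers. Regulatory elements of T-cell genes often lie in intergenic sequence many kilobases from the promoter, which is the space that these peaks occupy.

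The following sequences are the plus strand of NCBIM37 over the whole called peak, 187 bp each, with TGTGGT or its reverse complement ACCACA in capitals. Tcf7 is shown as the near-intergenic peak with the highest score, and Il21r, Cd8b1, Pag1, Hmgb1 and Bid as the highest-scoring peaks with the motif near genes of the T-cell lists described below. The Enthd1 peak is the one with the most motifs together with the highest score among such peaks, and the last pair, beside T-cell receptor gene segments, was chosen after its values were seen.
Tcf7 peak, chr11:52127658-52127844: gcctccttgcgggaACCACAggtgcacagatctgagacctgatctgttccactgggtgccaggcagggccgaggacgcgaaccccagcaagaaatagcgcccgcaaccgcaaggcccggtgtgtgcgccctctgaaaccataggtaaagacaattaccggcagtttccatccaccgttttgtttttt
Il21r peak, chr7:132779052-132779238: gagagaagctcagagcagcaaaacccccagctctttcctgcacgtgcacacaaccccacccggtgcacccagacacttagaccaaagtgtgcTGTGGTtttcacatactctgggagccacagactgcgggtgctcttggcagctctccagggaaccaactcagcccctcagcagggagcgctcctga
Cd8b1 peak, chr6:71291300-71291486: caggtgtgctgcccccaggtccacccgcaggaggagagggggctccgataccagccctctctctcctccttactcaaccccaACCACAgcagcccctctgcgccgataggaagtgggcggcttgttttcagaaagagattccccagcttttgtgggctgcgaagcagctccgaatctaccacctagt
Pag1 peak, chr3:9853117-9853303: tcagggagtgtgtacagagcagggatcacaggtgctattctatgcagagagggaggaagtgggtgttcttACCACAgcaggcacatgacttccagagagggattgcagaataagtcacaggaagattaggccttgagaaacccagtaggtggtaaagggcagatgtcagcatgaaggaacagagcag
Hmgb1 peak, chr5:149892162-149892348: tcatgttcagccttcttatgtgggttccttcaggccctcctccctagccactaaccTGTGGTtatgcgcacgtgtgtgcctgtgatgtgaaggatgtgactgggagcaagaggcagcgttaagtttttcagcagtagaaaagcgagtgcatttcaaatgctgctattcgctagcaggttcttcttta
Bid peak, chr6:120880486-120880672: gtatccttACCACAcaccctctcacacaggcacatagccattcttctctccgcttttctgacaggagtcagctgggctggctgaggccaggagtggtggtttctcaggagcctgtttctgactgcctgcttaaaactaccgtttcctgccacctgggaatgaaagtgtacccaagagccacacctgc
Enthd1 peak, chr15:80402834-80403020: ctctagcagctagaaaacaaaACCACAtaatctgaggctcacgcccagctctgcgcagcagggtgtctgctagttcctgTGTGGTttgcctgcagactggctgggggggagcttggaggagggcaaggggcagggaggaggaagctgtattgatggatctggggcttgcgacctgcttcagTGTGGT
Peak beside Trac, chr14:54847209-54847395: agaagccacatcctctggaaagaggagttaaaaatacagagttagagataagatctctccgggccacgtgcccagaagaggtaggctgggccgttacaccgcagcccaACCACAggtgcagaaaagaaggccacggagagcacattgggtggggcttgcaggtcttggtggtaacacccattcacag
Peak between Trbc2 and Trbv31, chr6:41504418-41504604: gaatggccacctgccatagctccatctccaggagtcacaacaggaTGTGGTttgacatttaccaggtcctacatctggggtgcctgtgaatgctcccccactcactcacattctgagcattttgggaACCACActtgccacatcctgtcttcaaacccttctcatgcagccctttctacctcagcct

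In the Il21r peak the motif stood 1.5 bp from the centre, followed by a T, and in the Cd8b1 peak 8.5 bp from it on the minus strand. The Tcf7 motif lay 76.5 bp to the left of the centre and the Bid motif 82.5 bp to the left, near the edge of the called peak. The Enthd1 peak held 3 matches, 2 on the plus strand and 1 on the minus strand, and the peak between Trbc2 and Trbv31 held 1 on each strand. Among these chosen sequences, the position of the motif thus varied from the centre to near the edge of the peak. Position was not compared between scores.

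Near-intergenic peaks were spread over the whole range of distance that the rule allowed. Their distance to the nearest TSS had a median of 20377 bp, with quartiles of 12100.5 and 31780.5 bp. The sequence that met the position rule covered 468 Mb, or 18.3% of the genome, and held 1.55 Runx1 peaks per Mb. This lay between the 3.91 peaks per Mb within 5 kb of a TSS and the 0.788 per Mb of far-intergenic sequence, and above the 1.22 per Mb of gene bodies. Input peaks in the same near-intergenic space, 181 of 740, had a density of 0.387 per Mb, beside 0.396 in far-intergenic sequence, 0.250 within 5 kb of a TSS and 0.115 in gene bodies. On autosomes alone the input densities near and far from genes were 0.332 and 0.261 per Mb, and that of near-intergenic Runx1 peaks was 1.62. These densities follow from positions and were not tested.

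Across the zone the density did not decline steadily with distance. Runx1 peaks numbered 1.49 per Mb at 5 to 10 kb from the TSS, 1.72 at 10 to 20 kb, 1.50 at 20 to 30 kb, 1.64 at 30 to 40 kb and 1.26 at 40 to 50 kb. Input peaks ranged from 0.324 to 0.465 per Mb over the same bins. Upstream of the nearest TSS lay 478 peaks (65.7%), against 66.8% of the zone itself, and 249 (34.3%) lay downstream, against 33.2% of the zone. The outermost near-intergenic peaks were those of Frmd4b at 5018 bp and Gpr84 at 5022 bp, both with a score of 16, and at the far limit those of Ctsr at 49737 bp (score 16) and Scn10a at 49741 bp (score 23, with a motif). Just beyond the limits were peaks of Krtcap2 at 4974 bp (score 18) and Spon2 at 4923 bp (score 16), and of Smndc1 at 50127 bp (score 26) and Il17b at 50164 bp (score 16).

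**Figure D1:**
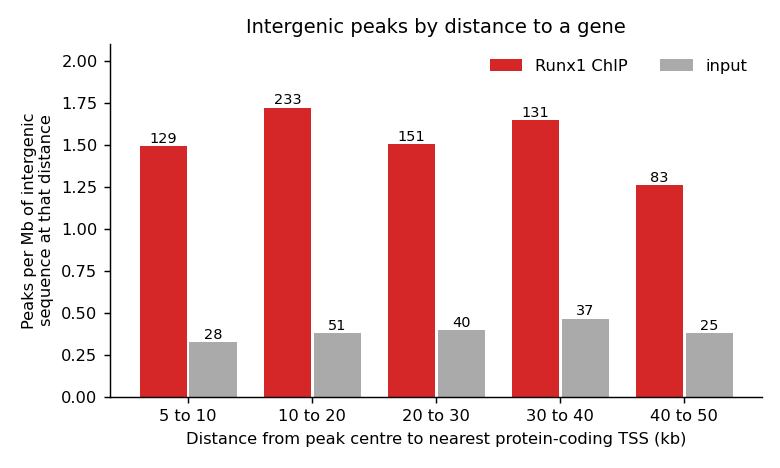
Near-intergenic Runx1 peaks and input peaks per Mb of genome that meets the position rule, against distance to the nearest protein-coding TSS (kb). Runx1 stays between 1.26 and 1.72 peaks per Mb in all bins, and input between 0.324 and 0.465.

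The annotation showed no gene of any kind over 694 of the 727 peaks (95.5%). Another 18 lay in lincRNA genes, 13 in processed transcripts and 5 in pseudogenes, with a peak counted in each kind it touched. The nearest TSS belonged to a gene adjacent to the peak in 721 cases (99.2%).

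The peaks were nearest to 656 different protein-coding genes, 2.95% of the 22225 annotated. Most of these genes, 592, had 1 near-intergenic peak, 58 had 2, 5 had 3, and Chrna9 had 4. Of the 656 genes, 57 (8.69%) also had a Runx1 peak within 5 kb of a TSS, against 4.30% of all genes, and 71 (10.8%) also had one in the gene body, against 6.52%. Either kind was present at 96 of them (14.6%), against 8.28% of all genes. These overlaps are given as shares, without a test, and the part of gene density and gene length in them was not measured.

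Several genes of the T lineage were among the nearest genes. Of 256 genes in 6 lists of T-cell genes, 37 (14.5%) were nearest to at least 1 near-intergenic peak, against 2.95% of all protein-coding genes, with 47 peaks in all, of which 26 held TGTGGT within 100 bp of the centre. Over all near-intergenic peaks 197 of 727 (27.1%) held it, and the counts per list below are to be read beside that share. A peak within 5 kb of a TSS or in the gene body was present at 77 of the 256 genes (30.1%), against 8.28% of all genes, so these lists were also well represented among the other classes of peaks. In a list of 49 genes of other cell types, 2 (4.08%) were nearest, namely Cebpa, a myeloid and liver regulator, and Csf3r, the receptor of granulocyte colony-stimulating factor. Both of those peaks had a score of 16 and no motif. The lists were drawn up with results of these data known, so the shares describe and do not test; Ptcra, Gfi1 and Mazr of the lists matched no annotated symbol.

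Among surface molecules of T cells, 9 of 36 genes were nearest to 13 peaks, 9 of them with the motif. The highest score, 56, belonged to a peak 16505 bp upstream of Ptprc, which encodes the phosphatase CD45, and it held no TGTGGT. The CD8 co-receptor locus had 3 peaks between Cd8b1 and Cd8a: a peak with the motif and score 35, at 18563 bp downstream of the Cd8b1 TSS, and 2 peaks upstream of Cd8a, at 19540 bp (score 28, no motif) and 15613 bp (score 21, motif). Cd2, an adhesion receptor, had a peak with score 33 at 12924 bp, and the scavenger-family receptor Cd6 had a pair at 42292 and 41410 bp with scores of 33 and 18, all with the motif. Thy1, the glycolipid-anchored marker of thymocytes, had 3 upstream peaks with scores of 40, 26 and 18, of which only the last, at 12043 bp, held motifs. The remaining genes, Cd69, Slamf6 and Tigit, had 1 peak each with a score of 16 to 18, and all 3 held the motif.

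T-cell receptor signalling genes numbered 7 of 48, with 8 peaks, 5 of them with the motif. Pag1, an adaptor that recruits the inhibitory kinase Csk, had peaks 32270 bp (score 42, no motif) and 19531 bp upstream (score 26, motif). Themis, which is needed for positive selection, had a peak 48735 bp upstream with a score of 16 and a motif, and Skap1, an adaptor of integrin activation, one at 22816 bp with 2 motifs and the same score. Peaks at Dusp2, Grap2 and Itpr1 each had a score of 18, the median of all near-intergenic peaks.

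The list of transcription factors of the lineage also held the chromatin remodeller gene Chd4. Of its 66 genes, 10 were nearest to 12 peaks, 5 of them with the motif. Tcf7, which encodes the T-lineage factor TCF-1, had the highest score of all near-intergenic peaks, 120, at 31070 bp upstream. Lef1, of the same family, had a peak with score 18 at 26467 bp and no motif. Runx3, the paralog of Runx1 that acts in CD8 T cells, had 2 peaks downstream of its TSS at 33339 bp (score 30) and 32361 bp (score 18), and neither held TGTGGT. Klf13 had a peak with score 35 and a motif at 45604 bp, Nr4a1, induced by receptor signalling, one with score 30 at 8121 bp without it, and Egr2, another gene of that response, one with score 26 and a motif at 31602 bp. Chd4, Fli1, Tox2 and Zbtb7a had scores of 14 to 16.

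Cytokine and chemokine receptors and their regulators numbered 7 of 45, with 9 peaks and 5 with the motif. Il21r, the receptor of interleukin 21, had a peak with score 73 at 32137 bp downstream of its TSS, and Ccr7, which guides thymocytes and T cells to lymphoid tissue, one with score 54 at 18466 bp, both with the motif. Ifnar1, a chain of the type I interferon receptor, had 3 peaks upstream with scores of 16, 33 and 18, and each held 1 motif. Cxcr4, Cxcr5, Ifngr1 and the signalling inhibitor Cish had scores of 16 to 18 and no motif. Of the 15 genes of V(D)J recombination only Hmgb1, a cofactor of RAG cleavage, was nearest to peaks, with scores of 16 and 23, the second with a motif. Of 46 survival and cell cycle genes 3 were, namely the pro-apoptotic Bid (score 23, motif), Mcl1 (score 18) and E2f1 (score 16), the last pair without it.

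**Figure D2:**
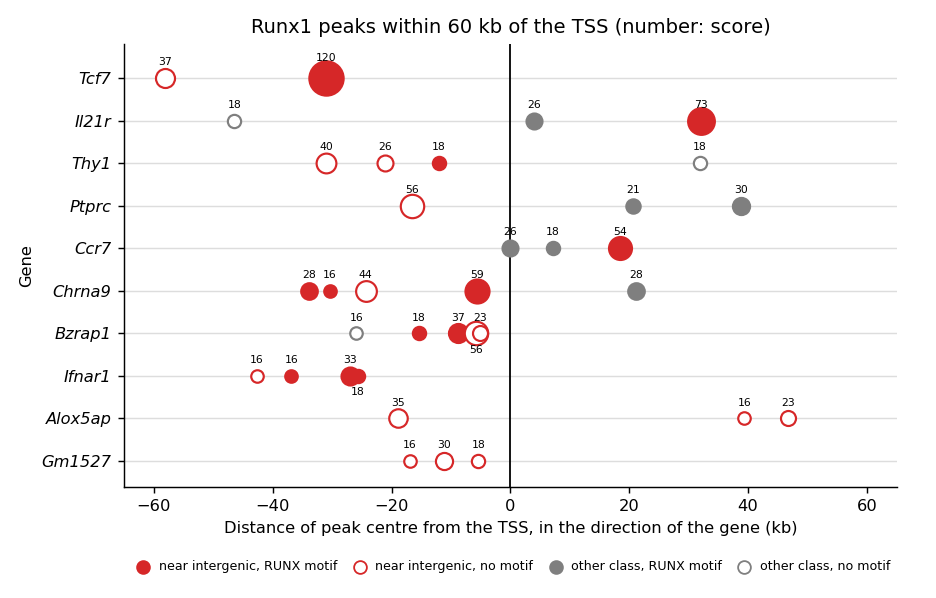
Runx1 peaks within 60 kb of the TSS of Tcf7, Il21r, Thy1, Ptprc, Ccr7 and genes nearest to 3 or more near-intergenic peaks, by distance in kb in the direction of the gene; for genes with several TSSs the map is drawn from 1 of them, so a distance can differ from that to the nearest TSS. Circle size and the number give the score, red circles are near-intergenic peaks (their nearest gene may be another one), grey ones other classes, and filled circles hold TGTGGT; the Tcf7 peak at 120 is the largest.

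The T-cell receptor genes themselves are annotated as gene segments, apart from protein-coding genes, and 4 near-intergenic peaks lay within 20 kb of one. The Tcra enhancer is known to lie between the constant segment Trac and Dad1, a gene for a subunit of oligosaccharyltransferase. There, a peak with score 80 lay 4530 bp to the right of Trac, and a second with score 37 lay 10386 bp from it, both with the motif. An input peak overlapped the first but not the second. The Tcrb enhancer is known to lie between Trbc2 and Trbv31, and a peak with score 56 and 2 motifs lay there, 3179 bp from Trbv31. Its nearest protein-coding TSS, of the trypsinogen gene Prss2, was 32725 bp away. The last of the 4, with score 26 and no motif, lay beside Trav1, at the other end of the Tcra locus. These loci were picked after their values were seen.

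Scores of near-intergenic peaks ran from 14 to 120, with a median of 18 and quartiles of 16 and 23. The 16 highest, with scores of 59 or more, were nearest to Tcf7 (120), Xcr1 (103), Gm4983 (80), Dad1 (80), Il21r (73), the ubiquitin ligase gene Itch (68), Nhedc1 (68), Gm5121 (66), S100a11 (63), Gcnt4, Gm3209, E330021D16Rik and Wdr48 (each 61), and Spats1, Cyp2c67 and Chrna9 (each 59). Of these 16, 9 held TGTGGT and 4 the ETS motif AGGAAG, beside 27.1% and 31.5% of all near-intergenic peaks. The Xcr1, Gm4983 and Dad1 peaks were overlapped by an input peak, and the central 32 bases of the Xcr1 and Itch peaks occurred 51 and 3 times in the genome. A repeated centre was thus found in 2 of the 16, beside 17.1% of all near-intergenic peaks. An input overlap was found in 3 of the 16, beside 1.24%. The other peaks of the 16, those of Tcf7 and Il21r among them, had neither.

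A score of 23 or more, the upper quartile of all Runx1 peaks, was reached by 29.0% of them and by 226 of the 727 near-intergenic peaks, or 31.1% (95% interval by the exact Clopper-Pearson method, 27.7 to 34.6%). High scores were more frequent than among TSS peaks, those within 5 kb of a TSS (25.9%, odds ratio 1.29, 1.04 to 1.60, adjusted p = 0.03 by Fisher's exact test, two-sided), and more frequent than among gene-body peaks (25.1%, odds ratio 1.34, 1.08 to 1.67, adjusted p = 0.02). The share did not differ past the threshold from the 35.8% of far-intergenic peaks (odds ratio 0.808, 0.649 to 1.01, adjusted p = 0.057, Fisher's exact test). With gene 5′ ends only, it was lower past the threshold (0.798, adjusted p = 0.044, same exact test). Among peaks whose central 32 bases occur once in the genome the shares were 28.4%, 25.7%, 23.6% and 31.1% in the same order, and neither of the first 2 differences passed the threshold (odds ratios 1.14 and 1.28). The difference from TSS peaks was also not past it on autosomes (1.23, adjusted p = 0.069, exact test), without peaks overlapped by input (1.24, adjusted p = 0.074) or for scores at or above the median (1.06, adjusted p = 0.59), nor was that from gene-body peaks on autosomes (1.30, adjusted p = 0.052).

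**Figure D3:**
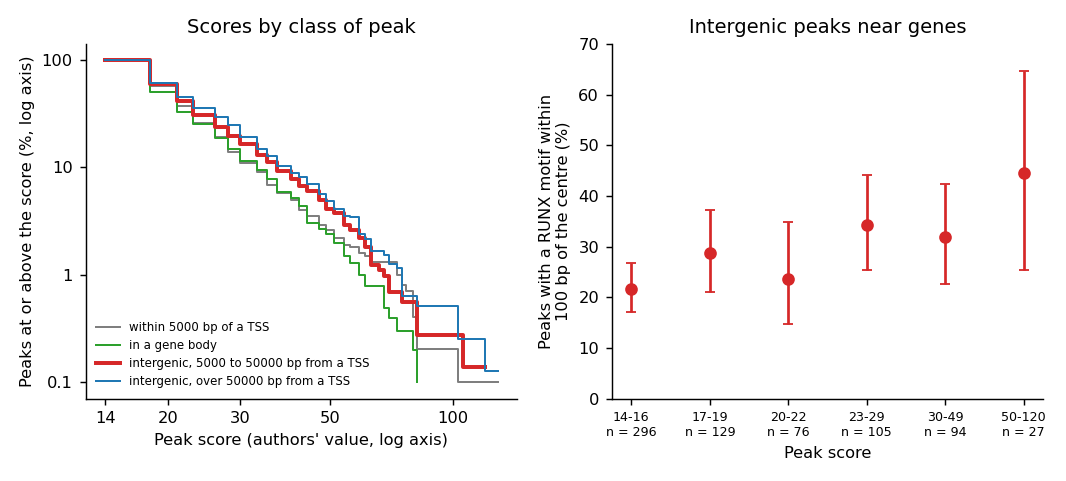
Percentage of peaks at or above each score (log axis) for the 4 classes of Runx1 peaks. The near-intergenic and far-intergenic curves lie above the other two at a score of 23, where they stand at 31.1% and 35.8%.

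The RUNX core was concentrated at the peak centres. TGTGGT on either strand lay within 100 bp of the centre in 197 near-intergenic peaks, or 27.1% (23.9 to 30.5%), against 26.5% of all Runx1 peaks. In windows of the same width 1 kb downstream, 97 (13.3%) held it, and over all 201 bp windows of the zone 14.6% did. The paired difference of 13.8 percentage points was past the threshold (164 peaks with the motif only at the centre, 64 only in the flank, adjusted p = 1.9e-10, exact McNemar test, two-sided). With TGCGGT also accepted, 230 peaks (31.6%) held a match at the centre and 107 (14.7%) in the flank. More than 2 in 3 peaks thus held neither of these letters in the window, and this says nothing of other forms of the site.

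Most of the peaks with the motif, 166, held 1 match, 28 held 2 and 3 held 3. The 231 matches gathered around the centre, with 86 (37.2%) within 25 bp and 153 (66.2%) within 50 bp, and fell on the plus strand 109 times and on the minus strand 122 times. The base after TGTGGT was T in 51.5% of the matches at the centre and in 26.2% of the 103 in the flank, and G in 23.8% and 39.8%.

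**Figure D4:**
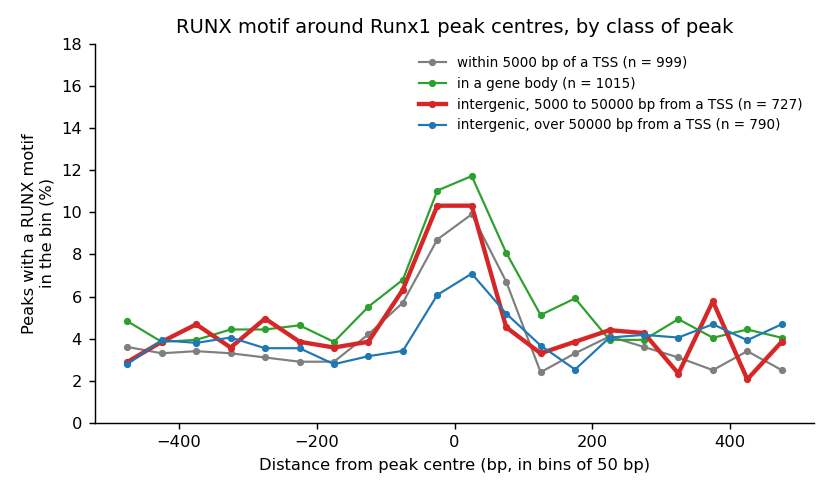
Percentage of peaks with a TGTGGT match in each bin of distance (bp) from the peak centre, for the 4 classes of Runx1 peaks. For near-intergenic peaks, the bins on both sides of the centre reach 10.3% each, and bins beyond 100 bp lie between 2.06 and 5.78%.

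Compared with the other classes, the share with TGTGGT was about that of TSS peaks (26.8%, odds ratio 1.01, 0.812 to 1.26, adjusted p = 0.91, Fisher's exact test). It did not differ past the threshold from the 31.2% of gene-body peaks (odds ratio 0.818, 0.659 to 1.02, adjusted p = 0.094, same exact test). Both comparisons changed when TGCGGT was also accepted: the share was then lower than in TSS peaks (odds ratio 0.665, adjusted p = 0.0001, exact test) and in gene-body peaks (0.807, adjusted p = 0.041). Far-intergenic peaks had a lower share, 19.4% (odds ratio 1.55, 1.21 to 1.98, adjusted p = 0.0012, exact test), but not past the threshold among peaks with a centre unique in the genome, where the shares were 29.9% and 23.7% (odds ratio 1.37, adjusted p = 0.056). Within the near-intergenic zone the share varied without order from 22.3% at 10 to 20 kb to 35.1% at 30 to 40 kb from the TSS, and was 27.2% upstream and 26.9% downstream of it.

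Peaks with high scores held the motif more often. TGTGGT was present in 78 of the 226 peaks with a score of 23 or more (34.5%, 28.3 to 41.1%) and in 119 of the 501 others (23.8%, 20.1 to 27.7%), an odds ratio of 1.69 (p = 0.0029, Fisher's exact test, two-sided). The share was 21.6% in the 296 peaks with scores of 14 to 16 and 44.4% in the 27 with scores of 50 to 120, where the interval of 25.5 to 64.7% is wide. In between it ran from 23.7 to 34.3% and not in steady order.

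Motifs of other T-lineage factors differed in their position relative to the peaks. The ETS core AGGAAG lay within 100 bp of the centre in 229 peaks (31.5%) and in 152 flanks (20.9%, adjusted p = 1.6e-05, exact McNemar test over 7 motifs), and the E-box CAGCTG, read by E proteins, in 153 (21.0%) and 81 (11.1%, adjusted p = 8.9e-07). The E-box CACCTG was also more frequent at the centre, 181 (24.9%) against 123 (16.9%, adjusted p = 0.00032, same exact test). In contrast, the GATA motif AGATAA was less frequent there, 49 (6.74%) against 86 (11.8%, adjusted p = 0.001, exact test). The TCF/LEF letters CTTTGT were present in 112 centres (15.4%) and 136 flanks (18.7%, adjusted p = 0.12, exact test), and the Ikaros core TGGGAA in 127 (17.5%) of each (adjusted p = 1). Over the whole zone the shares of these 6 motifs were 21.8%, 7.59%, 12.8%, 12.5%, 17.9% and 17.2%, in the order given. Over all Runx1 peaks they were 33.5%, 21.0%, 26.1%, 6.34%, 14.4% and 17.5%, so that these motifs were about as frequent at near-intergenic centres as in the whole list. All motifs were searched on both strands, and matches of different motifs could share bases. Base composition moved with these shares, since median G+C was 53.2% at the centre and 46.8% in the flank, and G+C of the zone as a whole was 42.7%; its part in the differences was not tested.

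The ETS and E-box motifs were also more frequent in peaks with the RUNX core than in those without it. AGGAAG was present in 80 of the 197 peaks with TGTGGT (40.6%) and in 149 of the 530 without it (28.1%, odds ratio 1.75, adjusted p = 0.0098, Fisher's exact test over 6 motifs), CAGCTG in 28.4% and 18.3% (odds ratio 1.77, adjusted p = 0.012), and CACCTG in 31.5% and 22.5% (odds ratio 1.59, adjusted p = 0.031). For GATA, TCF/LEF and Ikaros motifs the adjusted p was 0.48, 0.56 and 0.56. This comparison was added after the other values were seen, and it was run on all near-intergenic peaks only. The part of base composition and of repeated centres in it was not tested.

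**Figure D5:**
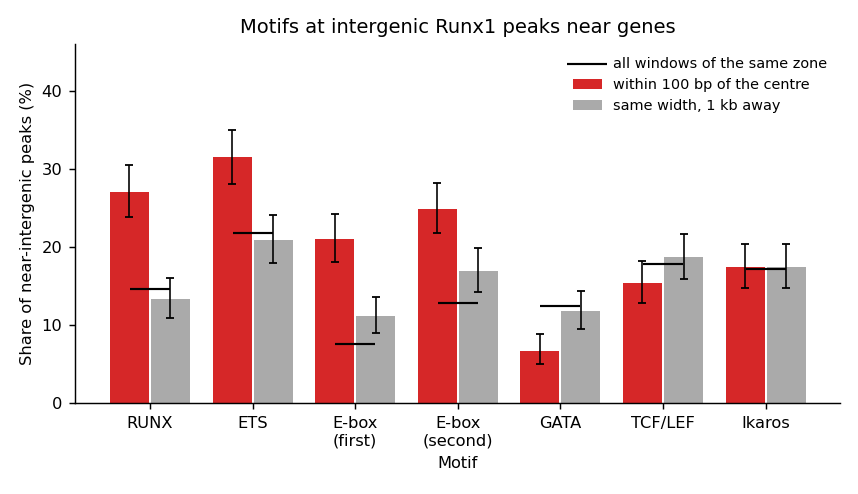
Percentage of the 727 near-intergenic peaks with each of 7 motifs within 100 bp of the centre and in the flank 1 kb away, beside the share of all windows of the zone. RUNX, ETS and both E-box motifs stand higher at the centre, and GATA lower.

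A minority of near-intergenic peaks lay near another Runx1 peak. A neighbour within 10 kb was found for 127 of 727 (17.5%, 14.8 to 20.4%), against 13.7% of all Runx1 peaks. The share was higher than in TSS peaks (13.2%, odds ratio 1.39, 1.06 to 1.83, adjusted p = 0.025, Fisher's exact test) and in gene-body peaks (10.1%, odds ratio 1.87, 1.40 to 2.51, adjusted p = 3.3e-05), and did not differ past the threshold from far-intergenic peaks (15.4%, odds ratio 1.16, 0.875 to 1.54, adjusted p = 0.3). Peaks of a cluster are not independent, so these p-values are too small. Restricted to centres unique in the genome, the shares were 14.6%, 12.9%, 9.49% and 9.48%. The difference from TSS peaks was then not past the threshold (odds ratio 1.15), and that from far-intergenic peaks was (odds ratio 1.63). With all annotated genes in place of protein-coding ones the difference from TSS peaks was also lost (1.26). With the protein-coding annotation, the odds ratio against far-intergenic peaks was 0.829 when neighbours were counted within 5 kb, and 1.30, past the threshold, within 20 kb.

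For most near-intergenic peaks the nearest other peak was far away, at a median of 97198 bp. A neighbour within 1 kb was found for 28 (3.85%), beside 1.70% of TSS peaks, 1.28% of gene-body peaks and 4.05% of far-intergenic peaks. Joined at 10 kb, 70 clusters held a near-intergenic peak and at least 1 other Runx1 peak. Of these, 50 held at least 2 near-intergenic peaks, 17 a peak within 5 kb of a TSS, and 5 held 3 or 4 near-intergenic peaks. The cluster between Supt4h1, a transcription elongation factor gene, and Bzrap1 spanned 10493 bp (chr11:87558541-87569033) and held 4 peaks with scores of 18, 37, 56 and 23, of which 2 had the motif. Another 4, between Il10rb and Ifnar1, chains of the interleukin 10 and interferon receptors, spanned 17187 bp (chr16:91442740-91459926) with scores of 16, 16, 33 and 18 and the motif in 3.

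The Thy1 cluster of 3 peaks spanned 19190 bp (chr9:43820328-43839517). Between Rhoh, a haematopoietic GTPase gene needed for T-cell receptor signalling, and Chrna9, a nicotinic receptor subunit gene, 3 peaks with scores of 28, 16 and 44 spanned 9702 bp (chr5:66292170-66301871), 2 of them with the motif. A further peak of that interval, 5590 bp from the Chrna9 TSS, had a score of 59 and 2 motifs. The last cluster, of scores 16, 30 and 18 upstream of the predicted gene Gm1527 (chr3:28774548-28786242), held no TGTGGT. Alox5ap, which acts in leukotriene synthesis, had 3 peaks with scores of 35, 16 and 23, of which the last pair lay within 10 kb of each other, and none held the motif.

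The study's methods describe a minimum enrichment of factor peaks over input; whether the input library described here served as that control is not given, and the part of this filter in the overlap was not tested. An input peak overlapped 9 of the 727 (1.24%, 0.568 to 2.34%) by at least 1 bp, against 0.991% of all Runx1 peaks and 26 of the 2804 others (0.927%, odds ratio 1.34, p = 0.41, Fisher's exact test). They were nearest to Xcr1 (score 103), Gm4983 and Dad1 (80 each), Calcr (47), Per2 and Gm1818 (44 each), Rpl21-ps14 (37), Vmn1r78 (30) and Zfp746 (23), and 2 of the 9 held the motif.

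The central 32 bases occurred once in the genome in 603 near-intergenic peaks (82.9%), against 88.3% of all Runx1 peaks, with 97.7% within 5 kb of a TSS, 93.4% in gene bodies and 74.8% in far-intergenic sequence. The 124 peaks with a repeated centre had a median of 101 copies. TGTGGT was present in 17 of them (13.7%), a score of 23 or more in 55 (44.4%) and a neighbour within 10 kb in 28 (22.6%), against 29.9%, 28.4% and 14.6% of the peaks with a unique centre.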

How the data were processed

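The authors deposited peaks of the Runx1 ChIP and of the input library, each with a score; the submitters' processing notes name HOMER and mm9, and the study's methods describe HOMER at default settings for factors, which require an enrichment over input and local signal. The aligner and the calling of input peaks are not given in the sources used here. Positions were made 1-based and compared with the GENCODE annotation and sequence of NCBIM37 (mm9). Lists of genes and the peaks described were chosen with earlier results of these data known. Genes were named when nearest to 1 of the 15 highest scores (ties included), in 1 of 7 gene lists, nearest to at least 3 peaks, or at a limit of the rule. Enthd1 was named as the peak with the most motifs, and genes beside receptor segments, flanking the clusters or at input-overlapped peaks after their values were seen. Values of some genes that the rule names are not reported here.

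Shares were compared by Fisher's exact test and centres with flanks by exact McNemar tests, two-sided, at 0.05, with Benjamini-Hochberg adjustment over 3 classes, 7 motifs or 6 other motifs. Intervals are Clopper-Pearson 95% intervals, for odds ratios conditional ones, and cover counting error over peaks only. The counting was tested on simulated data. Alternatives concerned annotation, motif, widths, flank, score, input, chromosomes, cluster distance and repeated sequence. Software was scipy 1.17.1, numpy 2.4.6, numba 0.67.0, pandas 2.3.3, pysam 0.24.0 and matplotlib 3.10.9 in Python 3.11.15.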

Additional observations from a re-analysis of the deposited data

How the results depend on the processing

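The excess of TGTGGT at the centres over the flanks passed the threshold under every alternative run, at 11.3 to 23.5 percentage points. Other annotations gave 715 to 845 near-intergenic peaks, and a score at or above the median left 431. Odds ratios against other classes moved more. For TGTGGT, that against TSS peaks turned to 0.915 with all genes annotated and to 0.665 with TGCGGT also accepted (adjusted p = 0.0001, Fisher's exact test), which also took the one against gene bodies past the threshold (0.807, adjusted p = 0.041), and that against far-intergenic peaks was lost with unique centres (1.37). For high scores, that against TSS peaks was lost without input-overlapped peaks (1.24), on autosomes (1.23), with unique centres (1.14) and above the median score (1.06), that against gene bodies on autosomes (1.30) and with unique centres (1.28), and that against far-intergenic peaks passed with gene 5′ ends only (0.798). For neighbours, that against TSS peaks was lost with all genes annotated (1.26) and with unique centres (1.15), and that against far-intergenic peaks turned to 0.829 within 5 kb and passed within 20 kb (1.30) and with unique centres (1.63). In 79 other cases direction and side of the threshold were kept, leaving aside the Ikaros motif, whose difference was 0 and which stayed short of the threshold. The causes were not tested. Alternatives with unique centres, all those for the 6 other motifs, and autosomes for the motif at the centre were chosen after seeing the data.

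Libraries could not be analysed as pairs because ChIP and input are single libraries, and for the same reason no library was left out. Without read counts, the depth behind a score, and regions missed for lack of it, cannot be judged.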
